A study of Danio rerio with 12 samples.

Results

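The genes described here are 65 zebrafish genes that were higher in macrophages of larvae given beclomethasone, a synthetic glucocorticoid. Wounded and unwounded treated larvae were each compared with unwounded larvae in vehicle. The genes were chosen from measured values. A gene was taken when its log2 level exceeded that of the Control sample with the same replicate number by more than 1, which is a 2-fold difference, in both Amp+Beclo and Beclo in each of 3 replicates, and when Amp exceeded Control by less than 1 on average. Levels were log2 CPM (reads of a gene per 1e6 reads of its library) with a prior count of 2, for genes with a mean of at least 10 reads per sample. Of 31962 genes in the tables, 20214 passed that minimum. Amp+Beclo exceeded Control in this way for 214 genes, Beclo for 170 genes and both for 88 genes. The condition on Amp removed 21 of the 88, and the known glucocorticoid targets FKBP5 and KLF9 were set aside by name, which left the 65. PER1 (ENSDARG00000056885) was also to be set aside but did not meet the rule itself. Among the genes that met it on 1 side only, 126 did so in Amp+Beclo and 82 in Beclo, and 94 genes missed membership by a single one of the 6 differences.

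RNA was measured in macrophages sorted by their red fluorescence from Tg(mpeg1.4:mCherry-F) larvae, in which the macrophage promoter mpeg1 drives the reporter. In all groups, larvae at 3 dpf (days post fertilisation) were pretreated for 2 h with drug or vehicle and the cells of 100 to 150 pooled embryos per sample were collected at 4 hpa (hours post amputation), with actinomycin D present during dissociation to stop transcription. Amp+Beclo larvae had the tail amputated in 25 µM beclomethasone, Beclo larvae received 25 µM beclomethasone without amputation, Amp larvae had the tail amputated in vehicle (0.05% DMSO), and Control larvae were left intact in vehicle. Each group held 3 samples, numbered 1 to 3 in the labels. The study describes its groups as coming from 3 replicate experiments. Whether these were separate clutches or days is not given in the sources used here. The p-values therefore measure the spread between these samples, which may in part be technical.

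Beclomethasone acts through the glucocorticoid receptor, a hormone-activated transcription factor that the cytoplasm holds in a complex with Hsp90 and its co-chaperones. After binding its ligand the receptor moves to the nucleus, where it raises genes near its DNA response elements and holds back the activity of pro-inflammatory factors such as NF-κB and AP-1. The raised genes are known to include feedback regulators of the receptor, enzymes that break steroids down, and regulators of glucose and energy metabolism. In macrophages the receptor is best known for lowering cytokine genes, and the genes it raises there are less often described.

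The 12 libraries held 9488569 to 18865019 reads on genes. Replicates 2 and 3 of Amp stood apart, with 6.55% and 4.72% of reads outside genes against a median of 10.3% over the 12, and with TMM scaling factors of 0.792 and 0.751. The sorted cells carried macrophage markers, summed over 18 genes to 5572 to 18861 CPM in Amp+Beclo, 12252 to 19094 CPM in Beclo, 9884 to 29623 CPM in Amp and 5648 to 19640.1 CPM in Control. Of 16 macrophage names listed 13 were matched in the gene table. The sort marker mpeg1 was not among them, and several identifiers shared the symbol MFAP4. Markers of other tissues were also present in every group. The sum over 7 muscle genes was 16469 to 50475 CPM in Amp+Beclo, 25742 to 34932 CPM in Beclo, 27823 to 84397 CPM in Amp and 12054 to 40781 CPM in Control. The sum over 9 epidermal genes was 9298 to 18591 CPM in Amp+Beclo, 13508 to 22698 CPM in Beclo, 7947 to 34603 CPM in Amp and 7824 to 18525 CPM in Control. The ranges of the groups overlapped for all 3 lists, and of 73 marker genes tested over all cell type lists edgeR, with the replicate number as a block in the fit, called 0 (adjusted p below 0.05 and a fold change above 2) in Amp+Beclo against Control and 0 in Beclo against Control. At an unadjusted p below 0.05, 1 was higher and 5 lower in Amp+Beclo, and 4 were higher in Beclo, while DESeq2 called 1 pigment cell gene lower in Amp+Beclo and 1 epidermal gene higher in Beclo. In Amp against Control, by contrast, edgeR called 9 of the 73 higher and 1 lower (2.46% of all genes, either way). The higher ones were 5 pancreatic enzyme genes (ela2, ela2l, CPA1, prss1 and prss59.1) of the 13 liver, gut and pancreas markers, 3 of 6 pigment cell markers (pmela, DCT and TYRP1) and 1 of 7 muscle markers (ckma), and the lower one was the macrophage marker csf1rb. DESeq2 called 7 higher and 1 lower there, 18 were higher and 4 lower at an unadjusted p below 0.05 (18.2% of all genes, either way), and without the replicate block edgeR called 0 of all genes. In Amp+Beclo against Amp both tools called 0 of the 73, with 2 higher and 8 lower at an unadjusted p below 0.05. The muscle list's median log2 fold changes against Control were 0.63 in Amp+Beclo, 0.68 in Beclo and 1.26 in Amp. In the same order they were 0.26, 0.48 and 0.62 for the epidermal list and -0.31, 0.21 and 0.30 for the macrophage list. Over all genes they were -0.01, -0.04 and -0.11. The sums of some other lists did not overlap in every comparison. Neural markers summed to 846 to 927 CPM in Beclo against 952 to 1339 CPM in Control. In Amp+Beclo they summed to 859 to 1008 CPM, against 1164 to 2059.9 CPM in Amp. Erythrocyte sums (609 to 1129 CPM) and pigment cell sums (96.1 to 151 CPM) in Amp+Beclo also lay below those in Amp (1260.3 to 2923 and 166 to 1639 CPM). The part of other cells in the levels below, those in Amp included, was not tested, and in pooled cells a lower share of a cell type and less RNA per cell cannot be told apart.

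On average over the replicates, Amp+Beclo exceeded Control by 1.16 to 4.82 on the log2 CPM scale over the 65 genes, with a median of 2.24. Beclo exceeded Control by 1.18 to 5.07, with a median of 2.21. The mean of both was above 2 for 37 genes, and above 3 for 14. In vehicle, Amp minus Control ran from -0.89 to 0.97 with a median of 0.30, and 41 of 65 values were above 0 (43.4% of all genes). Over the 20214 genes the medians were -0.00029 for Amp+Beclo minus Control, -0.026 for Beclo minus Control and -0.11 for Amp minus Control. These values chose the genes, so they carry no test.

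**Figure D1:**
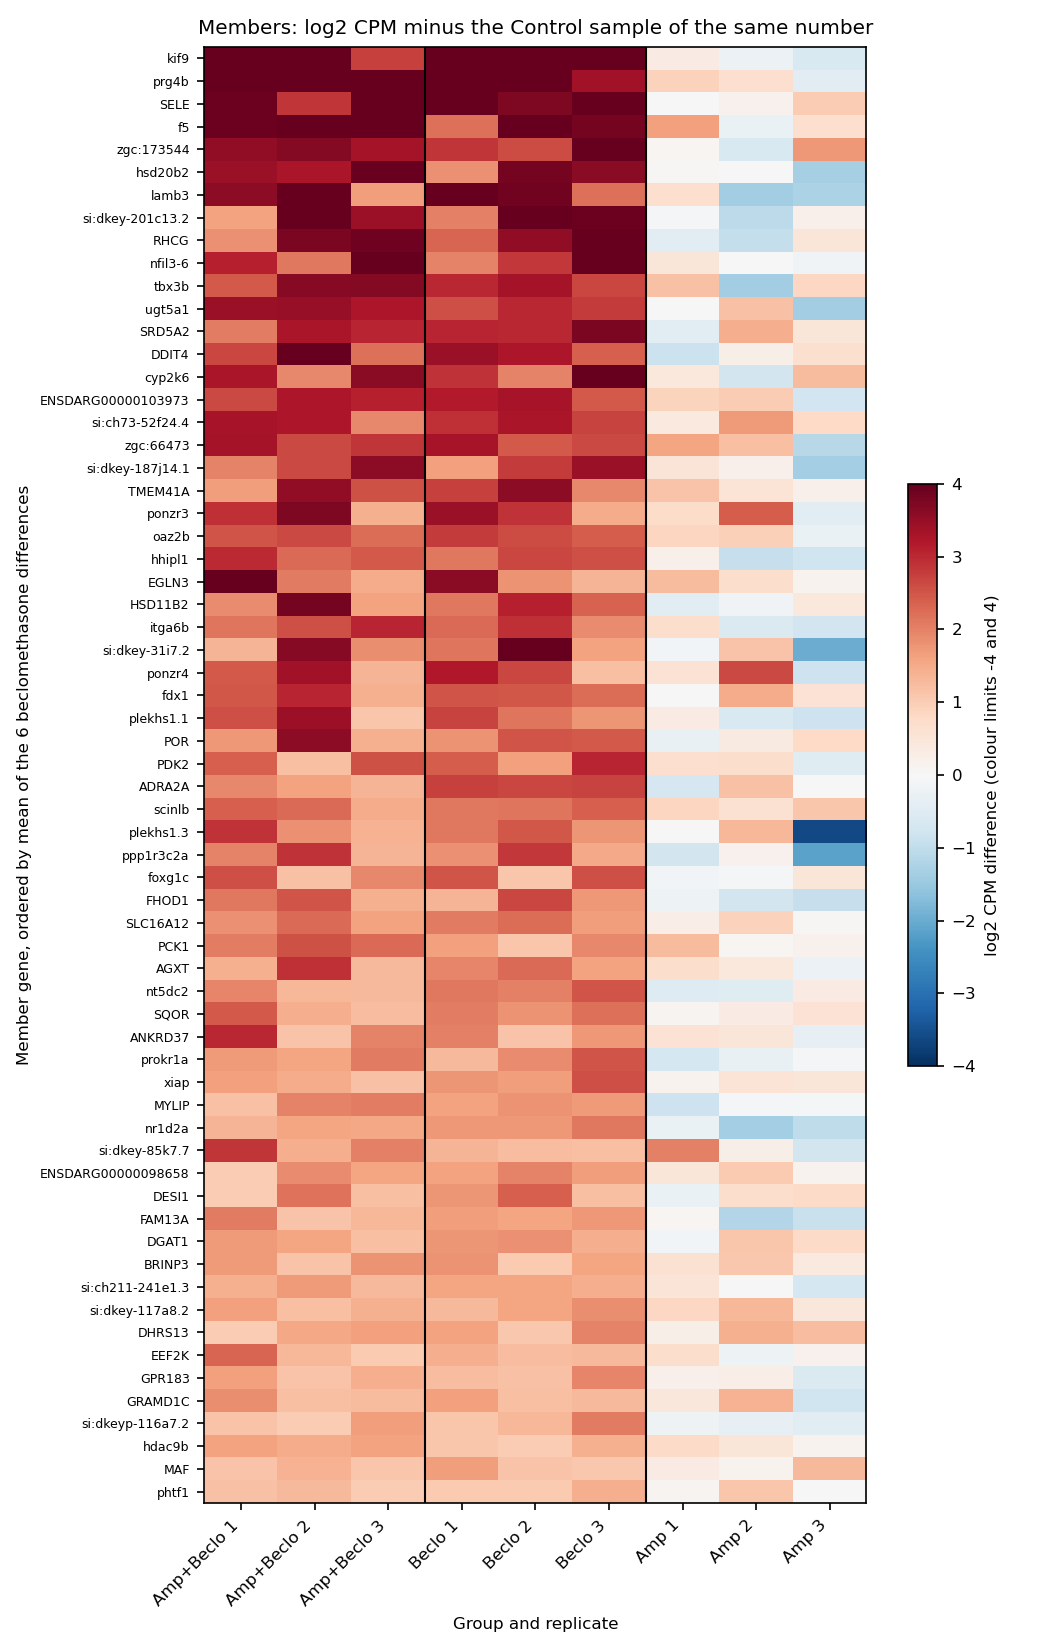
Each row is 1 of 64 of the genes and each column is 1 sample of Amp+Beclo, Beclo or Amp, coloured by its log2 CPM minus that of the Control sample with the same replicate number; colours stop at -4 and 4, and rows run by the mean of the 6 beclomethasone differences. The 6 beclomethasone columns are red throughout, by the rule, while the 3 Amp columns hold both signs, from -3.61 to 2.65 for single samples.

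In 52 of the 65 genes the 6 beclomethasone samples all lay above the 6 vehicle samples, which held for 0.999% of all genes. The 3 Amp+Beclo samples all lay above the 3 Amp samples in 54 genes (8.88% of all genes), and the 3 Beclo samples above the 3 Control samples in 63 (5.67%). The rule in part fixed these separations, here and for the single genes below, so nothing is read from them. Tested with edgeR (quasi-likelihood, p adjusted by Benjamini-Hochberg over all genes), at an adjusted p below 0.05 and a fold change above 2, 31 of 65 were called higher in Amp+Beclo against Control (0.374% of all genes) and 27 of 65 in Beclo against Control (0.167%). The overlap was 17 genes called in both, and 24 were called in neither. Since the rule used these samples, nothing is read from the counts, and they were not steady. The 31 became 13 without the replicate block, 61 without replicate 2 and 16 without replicate 3, and the 27 became 2 without replicate 1, while DESeq2 called 62 and 60. Totals over all genes moved under these settings too, as given in the closing section on processing. The shares of all genes called in both or in neither are not given here. The rule also held Amp near Control, so calls in Amp against Control are not read either. Amp lay above Control in each replicate for 15 members and below it for 5, beside 19.7% and 24.9% of all genes.

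Sorted by what their products do, which was done after the values were seen, 8 genes encode enzymes that act on steroids and foreign compounds or supply them with electrons. Their mean differences ran over 1.41 to 3.55 for Amp+Beclo minus Control, 1.56 to 3.28 for Beclo minus Control and -0.42 to 0.97 for Amp minus Control. The gene hsd20b2 (ENSDARG00000031336), whose product in zebrafish reduces cortisone to an excreted 20β-hydroxy form, had 74.9, 49.7 and 57.9 CPM in Amp+Beclo and 23.96, 74.8 and 45.98 CPM in Beclo, against 6.86, 5.102 and 1.35 CPM in Amp and 6.700, 5.07 and 3.58 CPM in Control. Every beclomethasone sample was above every vehicle sample, the lowest of them being Beclo replicate 1. HSD11B2 (ENSDARG00000001975), which turns cortisol into inactive cortisone, had 91.1, 137 and 86.96 CPM in the Amp+Beclo samples and 106, 82.8 and 146 CPM in the Beclo samples, compared with 17.9, 8.696 and 37.9 CPM in the Amp samples and 24.6, 9.53 and 28.4 CPM in the Control samples. Again the drug-treated samples were all higher, and Amp+Beclo covered much the same range as Beclo. SRD5A2 (ENSDARG00000043587), a steroid 5α-reductase, had 23.5, 39.8 and 41.3 CPM in Amp+Beclo and 47.6, 34.02 and 68.6 CPM in Beclo, against 4.08, 11.4 and 6.85 CPM in Amp and 5.58, 4.04 and 4.89 CPM in Control. It was separated in the same way, with Amp replicate 2 the highest of the vehicle samples. The members therefore held enzymes for 3 different reactions on steroids. Each had a level in Amp that overlapped its level in Control, but the rule set an upper limit on Amp, so nothing is read from that overlap.

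The electron donors of cytochromes P450 were members as well. POR (ENSDARG00000059035), the reductase that serves the microsomal P450 enzymes, had 121, 179.7 and 87.7 CPM in Amp+Beclo and 127, 87.2 and 180.5 CPM in Beclo, against 29.3, 19.4 and 57.2 CPM in Amp and 36.4, 15.03 and 32.7 CPM in Control. Its lowest beclomethasone sample, Beclo replicate 2, lay above its highest vehicle sample, Amp replicate 3. The ferredoxin gene fdx1 (ENSDARG00000056410), which passes electrons to mitochondrial P450 enzymes, ranged over 63.4 to 121 CPM in the 6 beclomethasone samples, against 13.9 to 39.1 CPM in the 6 vehicle samples. For the fish P450 cyp2k6 (ENSDARG00000098995) the values were 5.48, 5.997 and 8.83 CPM in the Amp+Beclo samples and 4.15, 6.201 and 13.7 CPM in the Beclo samples, compared with 0.624, 0.812 and 1.59 CPM in the Amp samples and 0.422, 1.46 and 0.5703 CPM in the Control samples, and the groups with and without the drug did not overlap. Likewise ugt5a1 (ENSDARG00000016479), a glucuronosyltransferase of a fish family that makes compounds more soluble, had 10.8, 12.3 and 12.9 CPM in Amp+Beclo and 5.83, 8.799 and 9.36 CPM in Beclo, against 0.8504, 2.32 and 0.367 CPM in Amp and 0.843, 0.944 and 1.22 CPM in Control. Both belong to families of similar genes, so their counts are less certain. DHRS13 (ENSDARG00000026322), a short-chain dehydrogenase, was the exception among the 8, since Amp replicates 2 and 3 (34.7 and 29.98 CPM) lay within its beclomethasone range of 25.8 to 51.2 CPM.

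**Figure D2:**
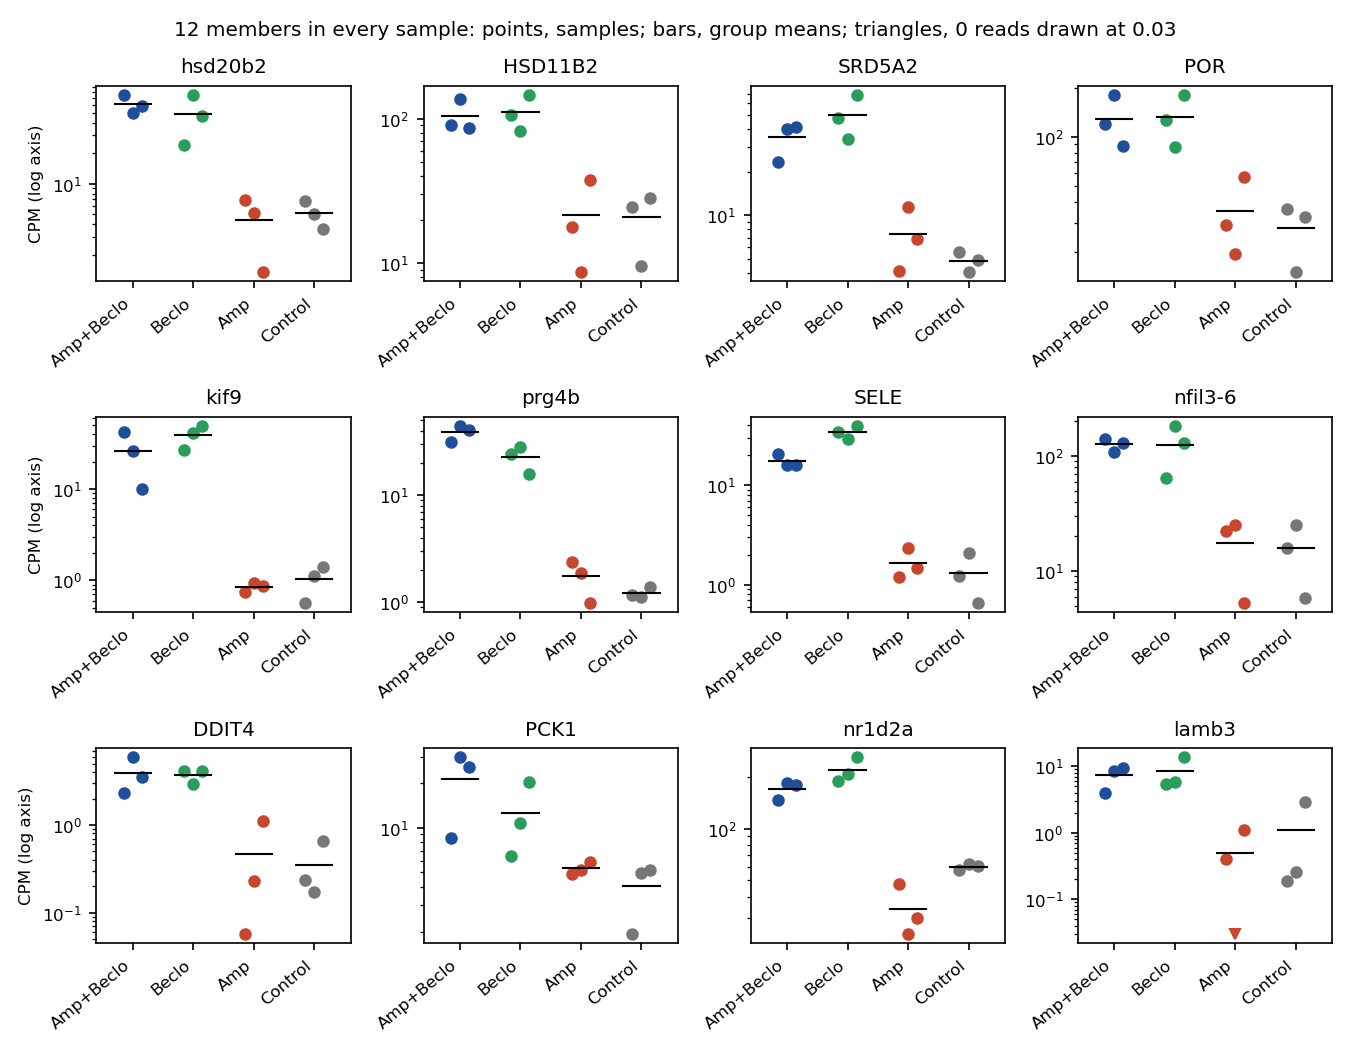
Normalised level (CPM, logarithmic axis) of 12 of the genes in all 12 samples, with points for samples, bars for group means and a triangle at 0.03 for a sample without reads; the groups run Amp+Beclo, Beclo, Amp and Control. In each panel the 6 beclomethasone samples lie above the 6 vehicle samples, since all 12 genes are among the 52 members with this separation. Members whose drug and vehicle samples overlapped are not drawn. SELE is lower in all 3 Amp+Beclo samples (15.9 to 20.9 CPM) than in all 3 Beclo samples (29.1 to 39.6 CPM), but was not called in that comparison.

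A further 11 genes act in intermediary metabolism and transport, with mean differences of 1.44 to 3.16 for Amp+Beclo minus Control and 1.39 to 3.305 for Beclo minus Control. The largest belonged to RHCG (ENSDARG00000003203), an ammonia transporter, which had 8.62, 25.2 and 51.3 CPM in Amp+Beclo and 12.2, 21.7 and 57.3 CPM in Beclo, against 1.64, 0.812 and 4.77 CPM in Amp and 2.296, 1.72 and 3.34 CPM in Control. Within each group replicate 3 was the highest. No vehicle sample reached the beclomethasone range, which the rule in part fixed. A second RHCG identifier, ENSDARG00000100265, was among the 21 genes that the condition on Amp removed, so reads shared between the copies are possible. PCK1 (ENSDARG00000013522), the enzyme that commits oxaloacetate to gluconeogenesis and a classical glucocorticoid target in liver, had 8.46, 29.9 and 25.5 CPM in the Amp+Beclo samples and 6.39, 10.8 and 20.3 CPM in the Beclo samples, compared with 4.88, 5.22 and 5.87 CPM in the Amp samples and 1.92, 4.98 and 5.21 CPM in the Control samples. Its replicate 1 was the lowest in all 4 groups. The antizyme gene oaz2b (ENSDARG00000059815), which limits polyamine synthesis, had 13.1, 10.5 and 9.74 CPM in Amp+Beclo and 15.9, 10.2 and 11.2 CPM in Beclo, against 4.03, 3.13 and 1.59 CPM in Amp and 2.16, 1.55 and 1.96 CPM in Control. Its differences were 2.47 ± 0.22 for Amp+Beclo minus Control and 2.61 ± 0.19 for Beclo minus Control (SD, n = 3).

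PDK2 (ENSDARG00000059054), a kinase that shuts pyruvate dehydrogenase and so spares glucose, ranged over 122 to 227 CPM in the 6 beclomethasone samples, against 19.6 to 86.6 CPM in the 6 vehicle samples. The glycogen-targeting phosphatase subunit ppp1r3c2a (ENSDARG00000069377) ranged over 19.3 to 32.98 CPM in the 6 beclomethasone samples, against 2.45 to 11.3 CPM in the 6 vehicle samples, and SLC16A12 (ENSDARG00000089885), a monocarboxylate transporter family member, over 49.4 to 78.4 CPM in the 6 beclomethasone samples, against 12.02 to 25.2 CPM in the 6 vehicle samples. In these 3 genes no vehicle sample reached the beclomethasone samples. Levels of nt5dc2 (ENSDARG00000059646), a 5′-nucleotidase domain gene, were 844, 462 and 381 CPM in Amp+Beclo and 940.5, 748 and 892 CPM in Beclo, against 153, 131 and 196 CPM in Amp and 219.8, 185 and 156 CPM in Control. AGXT, SQOR and DGAT1, enzymes of glyoxylate, sulfide and triglyceride metabolism, were also separated. GRAMD1C, a sterol carrier, was not, because 1 Amp sample (39.4 CPM) was above all its others. Markers of liver, gut and pancreas, tissues in which some of these enzymes are abundant, summed over 13 genes to 155 to 766 CPM in Amp+Beclo, 234 to 423 CPM in Beclo, 267 to 559 CPM in Amp and 215 to 647 CPM in Control. The test called 0 of the 13 in either drug group against Control, with 1 higher in Amp+Beclo at an unadjusted p below 0.05. In Amp against Control it called 5 of the 13 higher. Against Control the list's median log2 fold change was 0.53 in Amp+Beclo, 0.07 in Beclo and 0.59 in Amp. Over all genes these medians were -0.01, -0.04 and -0.11.

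Among 7 genes for transcription factors and chromatin proteins, nfil3-6 (ENSDARG00000087188) and tbx3b (ENSDARG00000061509) had the largest differences. The gene nfil3-6 belongs to the family of the basic leucine zipper repressor NFIL3 and had 139, 109 and 130.3 CPM in Amp+Beclo and 64.3, 183 and 130.0 CPM in Beclo, against 22.5, 25.2 and 5.26 CPM in Amp and 15.98, 25.4 and 5.87 CPM in Control. The lowest beclomethasone sample was 64.3 CPM and the highest vehicle sample 25.4 CPM. The T-box gene tbx3b was read at a low level, with 2.01, 5.01 and 7.102 CPM in the Amp+Beclo samples and 3.02, 4.02 and 3.45 CPM in the Beclo samples, compared with 0.737, 0 and 0.857 CPM in the Amp samples and 0.234, 0.258 and 0.407 CPM in the Control samples. With so few reads in vehicle its fold depends on the prior count. The groups with and without the drug did not overlap, which the rule in part fixed. The nuclear receptor gene nr1d2a (ENSDARG00000003820), a haem-binding repressor of the circadian clock, had 147, 185 and 179.7 CPM in Amp+Beclo and 190.2, 207 and 263 CPM in Beclo, against 47.6, 24.1 and 29.98 CPM in Amp and 57.2, 61.7 and 60.8 CPM in Control. Its 3 Amp samples were all below its 3 Control samples, and its beclomethasone samples were all above both. The remaining 4 were foxg1c, MAF, hdac9b and phtf1, with means of both beclomethasone differences of 1.97, 1.25, 1.38 and 1.17. In MAF, a leucine zipper factor of macrophages and other lineages, Amp replicate 3 (6.85 CPM) lay within the beclomethasone range of 4.75 to 6.89 CPM.

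Signalling and stress regulators made up 10 genes. DDIT4 (ENSDARG00000037618), an inhibitor of the growth kinase complex mTORC1 and a known glucocorticoid target in mammals, had 2.34, 5.997 and 3.55 CPM in Amp+Beclo and 4.15, 2.93 and 4.09 CPM in Beclo, against 0.0567, 0.232 and 1.101 CPM in Amp and 0.234, 0.172 and 0.652 CPM in Control. Its level was low, and 1 Amp sample rested on a single read. No vehicle sample reached the beclomethasone samples, which the rule in part fixed. EGLN3 (ENSDARG00000032553), an oxygen-sensing prolyl hydroxylase of the HIF pathway, had 45.5, 24.8 and 29.96 CPM in the Amp+Beclo samples and 22.8, 20.5 and 27.4 CPM in the Beclo samples, compared with 4.42, 9.39 and 11.6 CPM in the Amp samples and 1.73, 5.75 and 10.5 CPM in the Control samples. In its vehicle samples replicate 1 was low and replicate 3 high. The elongation factor 2 kinase EEF2K (ENSDARG00000035835), which slows translation, ranged over 167 to 308 CPM in the 6 beclomethasone samples, against 61.3 to 119 CPM in the 6 vehicle samples. The adrenoceptor gene ADRA2A (ENSDARG00000040841) had 6.36, 4.23 and 4.64 CPM in Amp+Beclo and 11.1, 9.13 and 11.9 CPM in Beclo, against 0.907, 3.13 and 1.71 CPM in Amp and 1.55, 1.29 and 1.71 CPM in Control. Here the Beclo samples were the highest, the Amp+Beclo samples lay between, and the vehicle samples were the lowest. ADRA2A was not called in Amp+Beclo against Beclo, and the share of all genes in this order was not counted. GPR183 (ENSDARG00000074302), the receptor for oxysterols that guide immune cells, ranged over 12.6 to 19.5 CPM in the 6 beclomethasone samples, against 2.94 to 8.0 CPM in the 6 vehicle samples. Of the other members of this group, xiap, MYLIP, prokr1a and FAM13A were separated between drug and vehicle in all samples and DESI1 was not.

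The 9 genes for adhesion, matrix, coagulation and cytoskeleton held the largest differences of all, with medians of 3.199 for Amp+Beclo minus Control and 3.36 for Beclo minus Control. First in the order was kif9 (ENSDARG00000031693), a kinesin motor gene, with 42.5, 26.4 and 10.02 CPM in Amp+Beclo and 26.5, 40.8 and 49.2 CPM in Beclo, against 0.737, 0.928 and 0.857 CPM in Amp and 0.562, 1.12 and 1.39 CPM in Control. Its vehicle samples lay between 0.562 and 1.39 CPM, and Amp+Beclo replicate 3 was the lowest of the beclomethasone samples. Next came prg4b (ENSDARG00000028163), related to the lubricating proteoglycan lubricin, with 31.7, 44.4 and 41.1 CPM in Amp+Beclo and 24.2, 27.9 and 15.7 CPM in Beclo, against 2.38, 1.86 and 0.979 CPM in Amp and 1.17, 1.12 and 1.39 CPM in Control. All Amp+Beclo samples were above all Beclo samples. SELE (ENSDARG00000042138), the gene of the adhesion molecule E-selectin that in mammals captures leukocytes on activated endothelium, had 20.9, 16.1 and 15.9 CPM in the Amp+Beclo samples and 34.01, 29.1 and 39.6 CPM in the Beclo samples, compared with 1.19, 2.32 and 1.47 CPM in the Amp samples and 1.22, 2.06 and 0.652 CPM in the Control samples. Here the order was the other way round, with Beclo above Amp+Beclo in all samples. Neither SELE nor prg4b was called in Amp+Beclo against Beclo, and the share of all genes separated in this way was not counted. The 3 endothelial markers measured summed to 163 to 211 CPM in Amp+Beclo, 143 to 202 CPM in Beclo, 92.2 to 225 CPM in Amp and 105 to 181 CPM in Control. None of the 3 passed an unadjusted p below 0.05 in Amp+Beclo or in Beclo against Control.

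The coagulation factor gene f5 (ENSDARG00000055705), best known from liver, had 106, 180.3 and 153 CPM in Amp+Beclo and 32.1, 171 and 98.6 CPM in Beclo, against 21.7, 7.19 and 10.8 CPM in Amp and 6.79, 8.67 and 6.76 CPM in Control. Beclo replicate 1 was its lowest beclomethasone sample, and Amp replicate 1 its highest vehicle sample. The laminin β3 chain gene lamb3 (ENSDARG00000059369), whose product is part of epithelial basement membranes, had 3.95, 8.46 and 9.38 CPM in Amp+Beclo and 5.48, 5.87 and 13.8 CPM in Beclo, against 0.397, 0 and 1.101 CPM in Amp and 0.187, 0.258 and 2.85 CPM in Control. No vehicle sample reached the beclomethasone samples, although Control replicate 3 came close. The integrin gene itga6b (ENSDARG00000069946), a laminin receptor subunit, ranged over 134 to 298 CPM in the 6 beclomethasone samples, against 20.8 to 60.4 CPM in the 6 vehicle samples. Of the 9 epidermal markers given above, edgeR called 0 with the drug, 2 were higher in Beclo against Control at an unadjusted p below 0.05, and DESeq2 called 1 of them. The actin-severing gene scinlb (ENSDARG00000058348) and the formin FHOD1 (ENSDARG00000051768) were also separated. The first ranged over 219.5 to 409 CPM in the 6 beclomethasone samples, against 68.2 to 168 CPM in the 6 vehicle samples. FHOD1 ranged over 12.8 to 21.6 CPM in the 6 beclomethasone samples, against 1.62 to 5.21 CPM in the 6 vehicle samples.

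The last 20 genes are of other or unknown function, and 13 of them were separated in all samples. The gene zgc:173544 (ENSDARG00000070714) had the lowest mean CPM in Control of the members, so it is given as reads. It had 28, 30 and 16 reads in Amp+Beclo and 19, 16 and 82 reads in Beclo, against 1, 0 and 3 reads in Amp and 1, 1 and 0 reads in Control. Also low were si:dkey-201c13.2 (ENSDARG00000094696), with 3.46, 6.39 and 5.92 CPM in Amp+Beclo and 4.64, 6.87 and 8.45 CPM in Beclo, against 0.964, 0 and 0.4895 CPM in Amp and 1.03, 0.172 and 0.407 CPM in Control, and ENSDARG00000103973, which has no symbol in the gene table. This gene had 2.8999, 5.41 and 7.56 CPM in the Amp+Beclo samples and 4.22, 5.61 and 4.72 CPM in the Beclo samples, compared with 0.737, 1.04 and 0.367 CPM in the Amp samples and 0.328, 0.429 and 0.733 CPM in the Control samples. In both, no vehicle sample reached the beclomethasone samples. At the other end, si:dkeyp-116a7.2 (ENSDARG00000097137) had the highest mean CPM in Control, with 565, 427 and 303 CPM in Amp+Beclo and 560.1, 529.6 and 398 CPM in Beclo, against 223, 169 and 68.8 CPM in Amp and 258, 211 and 94.3 CPM in Control. The gene si:ch73-52f24.4 (ENSDARG00000100697) had 739, 481 and 329 CPM in Amp+Beclo and 573, 492 and 566 CPM in Beclo, against 99.6, 169 and 152 CPM in Amp and 75.4, 51.4 and 87.4 CPM in Control. Its lowest beclomethasone sample, Amp+Beclo replicate 3, was above every vehicle sample. The gene hhipl1 (ENSDARG00000062501), named for its likeness to a hedgehog-binding protein, had 111, 67.7 and 47.7 CPM in the Amp+Beclo samples and 60.7, 90.6 and 51.97 CPM in the Beclo samples, compared with 16.04, 7.304 and 4.895 CPM in the Amp samples and 13.9, 13.99 and 8.64 CPM in the Control samples. In TMEM41A (ENSDARG00000026771), a membrane protein gene, replicate 1 was the lowest Amp+Beclo sample at 7.41 CPM, just above the highest vehicle sample at 6.98 CPM.

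Some of these genes have close copies or neighbours. Of 65 members 45 could be placed by symbol in the RefSeq gene table, and 3 pairs lay within 5 places of each other on a chromosome: zgc:66473 with si:dkey-187j14.1 at 2 places, ponzr3 with ponzr4 as direct neighbours, and plekhs1.1 with plekhs1.3 at 2 places. The gene zgc:66473 (ENSDARG00000087375) ranged over 4.64 to 8.104 CPM in the 6 beclomethasone samples, against 0.328 to 1.97 CPM in the 6 vehicle samples, and si:dkey-187j14.1 (ENSDARG00000087289) over 3.58 to 8.47 CPM, against 0.122 to 1.53 CPM. The ponzr genes are fish genes of the plac8 family. For ponzr3 (ENSDARG00000088589) the values were 14.7, 37.8 and 38.97 CPM in Amp+Beclo and 21.8, 20.7 and 40.9 CPM in Beclo, against 3.12, 15.1 and 10.5 CPM in Amp and 1.83, 2.66 and 14.5 CPM in Control. For ponzr4 (ENSDARG00000087440) they were 9.02, 32.1 and 33.1 CPM in Amp+Beclo and 15.2, 20.2 and 29.7 CPM in Beclo, against 2.32, 19.7 and 7.098 CPM in Amp and 1.499, 3.01 and 12.8 CPM in Control. In both, Amp replicate 2 was the highest Amp sample, Control replicate 3 the highest Control sample, and drug and vehicle samples overlapped. How reads of near-identical copies were counted is not given in the sources used here, so members of such pairs may share reads and are not separate evidence.

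The members nearest to the threshold were phtf1, hdac9b and si:dkeyp-116a7.2, whose lowest of the 6 differences were 1.01, 1.01 and 1.02. Just outside were GLUL (ENSDARG00000100003, glutamine synthetase), SERPINE3 (ENSDARG00000057108) and GYS1 (ENSDARG00000016875, glycogen synthase), each held back by Amp+Beclo replicate 3 alone, at 0.998, 0.987 and 0.987. The edge of the set is therefore not a gap in the values.

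Whether the wound altered these genes when the drug was present was asked by comparing Amp+Beclo with Beclo. The rule used the samples of both groups but not their difference, although a gene far apart in the 2 groups was less likely to meet it. By edgeR's quasi-likelihood test 0 of 65 members differed between Amp+Beclo and Beclo at an adjusted p below 0.05 and a fold change above 2, and 1 of 21727 genes did (0.00460%). DESeq2 called 0 members too, and 107 of all genes. The fitted log2 fold changes of Amp+Beclo over Beclo ran from -1.05 to 0.88 over the members, with a median of -0.05 against 0.06 over all genes tested. The lowest adjusted p of a member was 0.528, and over the alternatives tried it ranged from 0.0804 to 0.883. Of the 65 genes, 29 had a fold change above 0. The 95% intervals lay within a 2-fold difference either way for 40 members (61.5%), against 40.1% of all genes tested. For the other 25 the interval reached a 2-fold difference, so with 3 samples per group a difference of that size was not excluded. Members had to pass a higher count minimum than the genes tested, and a rise over Control in every replicate. The shares of 61.5% and 40.1% are therefore not comparable, and nothing is read from their difference. Median log2 fold changes of the marker lists in Amp+Beclo over Beclo were lowest for erythrocytes (-0.55) and macrophages (-0.53). The highest was that of liver, gut and pancreas (0.30), and over all genes the median was 0.06. The part of other cells in this comparison was not tested.

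**Figure D3:**
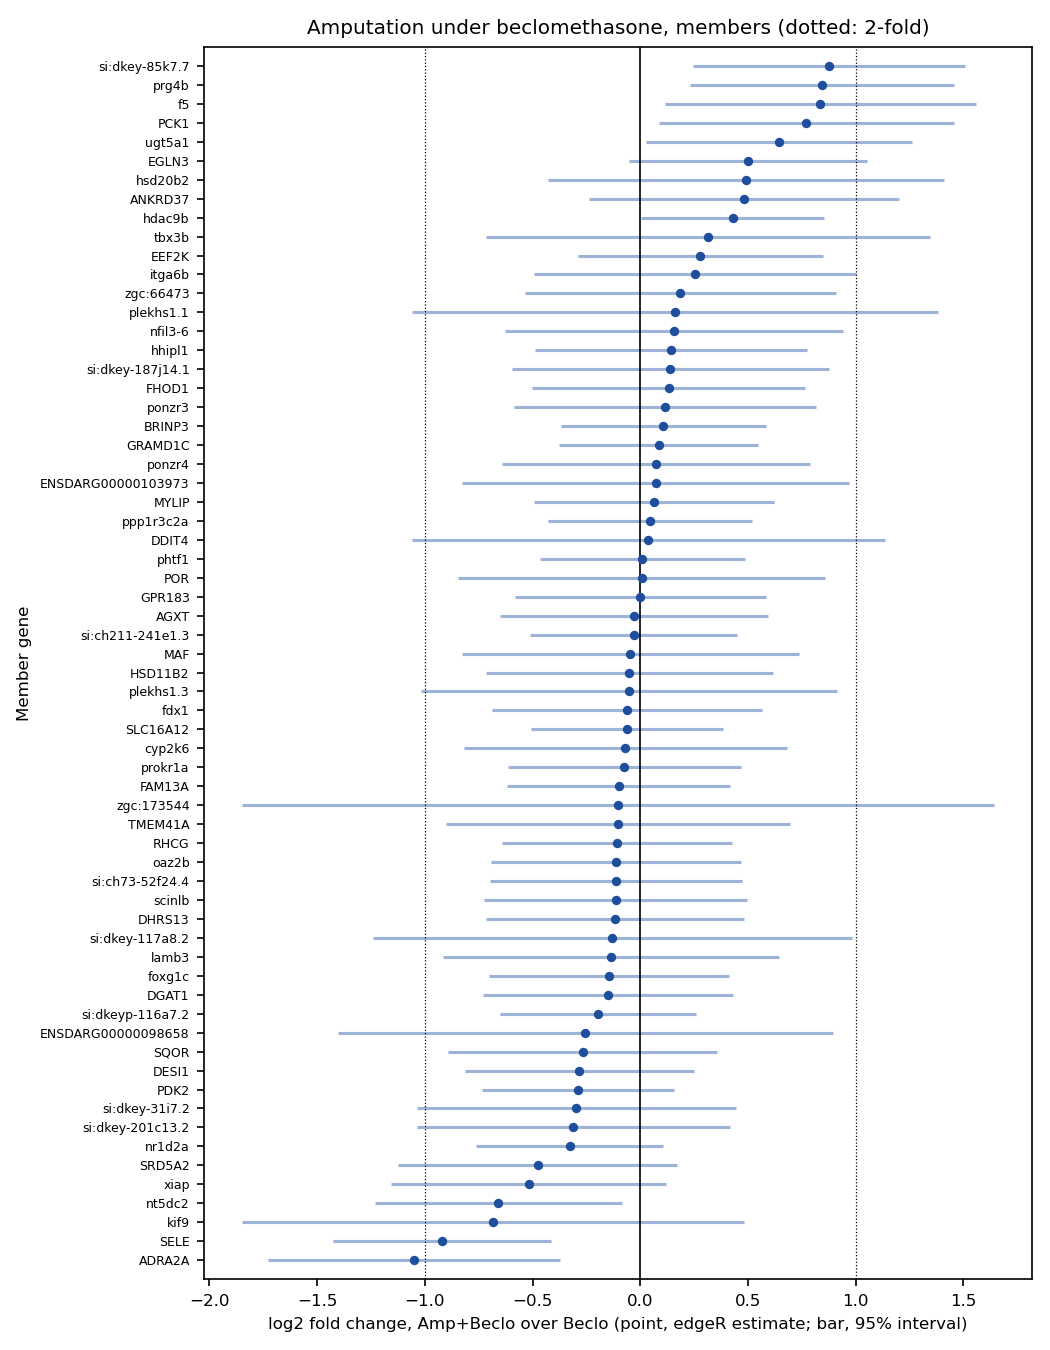
Log2 fold change of Amp+Beclo over Beclo for 64 of the genes (points, edgeR estimates; bars, 95% intervals), with dotted lines at a 2-fold difference either way. The points run from -1.05 for ADRA2A to 0.88 for si:dkey-85k7.7, and no member passed the test.

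At an unadjusted p below 0.05, 6 members were higher with the wound than without it under the drug and 3 were lower, that is 9 of 65 beside 9.28% of all genes, and none of the 9 passed the adjustment. The 3 lower ones were ADRA2A at -1.05 (95% interval -1.73 to -0.37), SELE at -0.92 (95% interval -1.43 to -0.41) and nt5dc2 at -0.66 (95% interval -1.23 to -0.08). The 6 higher ones were si:dkey-85k7.7 at 0.88 (95% interval 0.25 to 1.51), prg4b at 0.84 (95% interval 0.23 to 1.46), f5 at 0.84 (95% interval 0.11 to 1.56), PCK1 at 0.77 (95% interval 0.09 to 1.45), ugt5a1 at 0.64 (95% interval 0.03 to 1.26) and hdac9b at 0.43 (95% interval 0.0027 to 0.86). Their direction was the same under every alternative tried, but the alternatives reuse the samples on which these genes were picked. In each replicate Amp+Beclo was above Beclo for 10 members and below it for 10, or 15.4% each, beside 17.4% and 18.5% of all genes. The genes with the smallest differences included POR at 0.01 (95% interval -0.85 to 0.86), DDIT4 at 0.04 (95% interval -1.06 to 1.13), HSD11B2 at -0.05 (95% interval -0.72 to 0.62) and GPR183 at -0.00019 (95% interval -0.58 to 0.58).

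In wounded larvae themselves, Amp+Beclo minus Amp had a median of 1.96 over the members, and 25 of 65 were called higher by edgeR (0.258% of all genes), but 2 without the replicate block and 1, 6 and 9 without replicates 1, 2 and 3. It exceeded 1 in each replicate for 37 members (0.965% of all genes) and was above 0 in each replicate for 62 (18.9% of all genes). The rule fixes part of this, because it held Amp near Control. A reading that shares no sample with the choice is had by choosing genes on the unwounded larvae alone. It is still not fully independent of the choice. The deviations of same-numbered Amp and Control samples from their group means correlated at 0.57 on average. The 170 genes with Beclo above Control by more than 1 in each replicate, which include the 65, were therefore read in the Amp+Beclo and Amp samples.

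Of these 170 genes, 61 (35.9%) were above Amp by more than 1 in each replicate of Amp+Beclo, compared with 0.965% of all genes, and 125 (73.5%) were above Amp by any amount in each replicate, compared with 18.9%. By replicate, 128 (75.3%), 106 (62.4%) and 96 (56.5%) exceeded Amp by more than 1, beside 3.601%, 27.1% and 29.4% of all genes. The background was higher in replicates 2 and 3, whose Amp libraries stood apart, and the part of these libraries was not tested, nor was that of the pancreatic, pigment cell and muscle markers called higher in Amp against Control. The medians of Amp+Beclo minus Amp over the 170 genes were 1.46, 1.37 and 1.31 in the 3 replicates, and those of Beclo minus Control, which chose them, were 1.81, 1.74 and 1.92. The fit across all genes called 28 of the 170 higher in Amp+Beclo against Amp and 2 lower (0.258% and 0.0414% of all genes), at an adjusted p below 0.05 and a fold change above 2. That count of 28 fell to 2 without the replicate block and to 1, 6 and 10 without replicates 1, 2 and 3. DESeq2 gave 34. Among the 105 genes of the 170 that are not members, 24 exceeded Amp by more than 1 in each replicate.

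**Figure D4:**
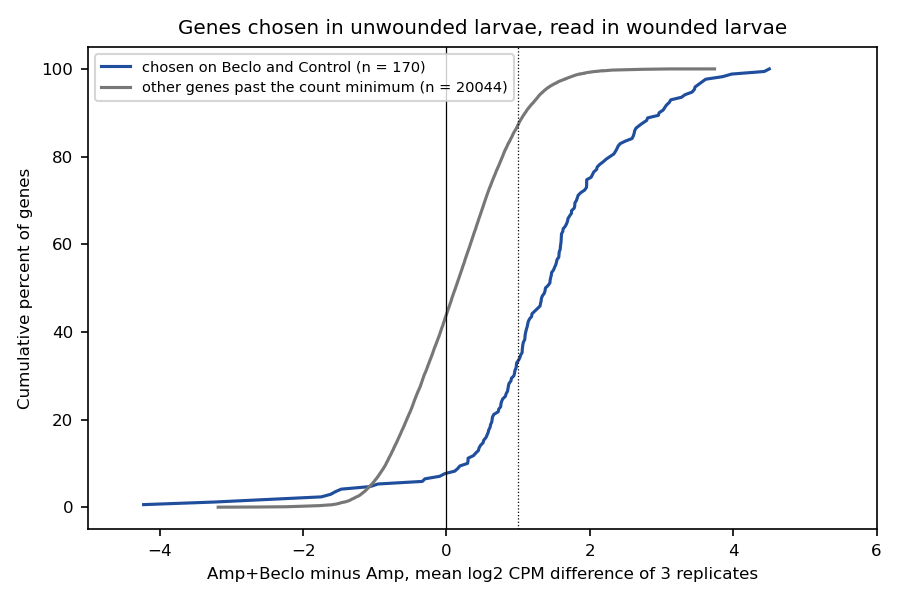
Cumulative percent of genes (vertical axis) by their Amp+Beclo minus Amp difference, the mean of 3 replicates on the log2 CPM scale (horizontal axis), for the 170 genes chosen on Beclo and Control samples (blue) and the other 20044 genes (grey); the dotted line marks a 2-fold difference. The blue curve lies to the right of the grey one over most of its length, and 61 of its 170 genes exceeded 1 in each replicate, against 134 of the 20044 others.

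The rule was also applied to 2 replicate numbers at a time and read in the one left out. With replicate 1 left out it found 138 genes, of which 66 (47.8%) exceeded Control by more than 1 in both Amp+Beclo and Beclo of replicate 1, compared with 2.08% of all genes. With replicate 2 left out it found 120 genes, and 66 (55%) did so in replicate 2, compared with 7.71%. With replicate 3 left out it found 104 genes, and 59 (56.7%) did so in replicate 3, compared with 3.33%. In each reading Amp+Beclo and Beclo shared 1 Control sample, so the 2 differences are not independent. Members exceed Control in this way in every replicate by the rule. With replicates 1, 2 and 3 left out, 62, 62 and 59 of the genes so counted were members. These counts are therefore not evidence apart from the set. The shares tell only how many of the genes chosen on 2 replicates also exceeded Control in the third. The medians in the replicate left out were 1.26, 1.301 and 1.37 for Amp+Beclo minus Control and 1.19, 1.27 and 1.68 for Beclo minus Control, all lower than the medians over the 65 genes, which were chosen on the samples they are read in.

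The genes set aside by name show the size of an established response. FKBP5 (ENSDARG00000028396), a co-chaperone that limits the receptor's affinity for hormone, had 1741, 1272 and 1113 CPM in Amp+Beclo and 1986, 1578 and 1870.1 CPM in Beclo, against 189, 102 and 139 CPM in Amp and 216, 149 and 106 CPM in Control. No vehicle sample came near the beclomethasone samples. KLF9 (ENSDARG00000068194), a zinc finger factor induced directly by the receptor, had 93.4, 87.2 and 83.9 CPM in the Amp+Beclo samples and 94.9, 113 and 122 CPM in the Beclo samples, compared with 13.5, 4.17 and 6.12 CPM in the Amp samples and 21.3, 9.53 and 10.8 CPM in the Control samples. PER1 (ENSDARG00000056885), a clock gene with known response elements, had 11.6, 24.1 and 24.6 CPM in Amp+Beclo and 6.53, 23.1 and 13.8 CPM in Beclo, against 2.44, 0.812 and 4.28 CPM in Amp and 5.81, 2.75 and 6.84 CPM in Control. PER1 missed the rule at least in replicate 1. There its Beclo sample at 6.53 CPM and its Amp+Beclo sample at 11.6 CPM were less than 2-fold above its Control sample at 5.81 CPM. The mean differences of FKBP5 were 3.16 for Amp+Beclo minus Control and 3.58 for Beclo minus Control, and those of kif9, the leading member, were 4.33 and 5.07.

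A list of genes known to be induced by glucocorticoids in vertebrates had 56 identifiers here, of which 2, PCK1 and DDIT4, were members. In Amp+Beclo against Control 5 of 56 were called higher (FKBP5, KLF9, IRS2, PCK1 and DDIT4), in Beclo against Control 2 of 56 (FKBP5 and KLF9), and in Amp+Beclo against Amp 5 of 56 (FKBP5, KLF9, PER1, IRS2 and DDIT4). Over all genes the shares called higher were 0.374%, 0.167% and 0.258%. None of the 56 was called lower in these 3 comparisons. The list's median log2 fold changes were 0.31, 0.39 and 0.496, beside -0.01, -0.04 and 0.14 over all genes. The list was written with earlier results of these data known. PCK1 and DDIT4 were chosen on these samples, and FKBP5, KLF9 and PER1 are named in the rule. Nothing is therefore read from these shares and medians. In Amp against Control 1 of the list, SOCS1, was called higher (2.46% of all genes were called, either way), and the median was -0.10, beside -0.11. Other classical targets had smaller differences. The leucine zipper gene tsc22d3, known as GILZ, had 497, 450.0 and 267 CPM in Amp+Beclo and 711, 416 and 747 CPM in Beclo, against 132, 178 and 272 CPM in Amp and 227, 178 and 230.0 CPM in Control. Amp+Beclo replicate 3 and Amp replicate 3 were nearly equal, and the gene was not called in either drug group against Control (log2 fold change ± SE, 0.89 ± 0.35 in Amp+Beclo and 1.53 ± 0.34 in Beclo). The phosphatase DUSP1 had 2683, 1752 and 1541 CPM in Amp+Beclo and 3631, 2776 and 3681 CPM in Beclo, against 1262, 2674 and 1542 CPM in Amp and 1584, 2865 and 1075 CPM in Control, and its drug and vehicle samples overlapped. Most genes of this list were not among the members, and most members were not on this list.

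**Figure D5:**
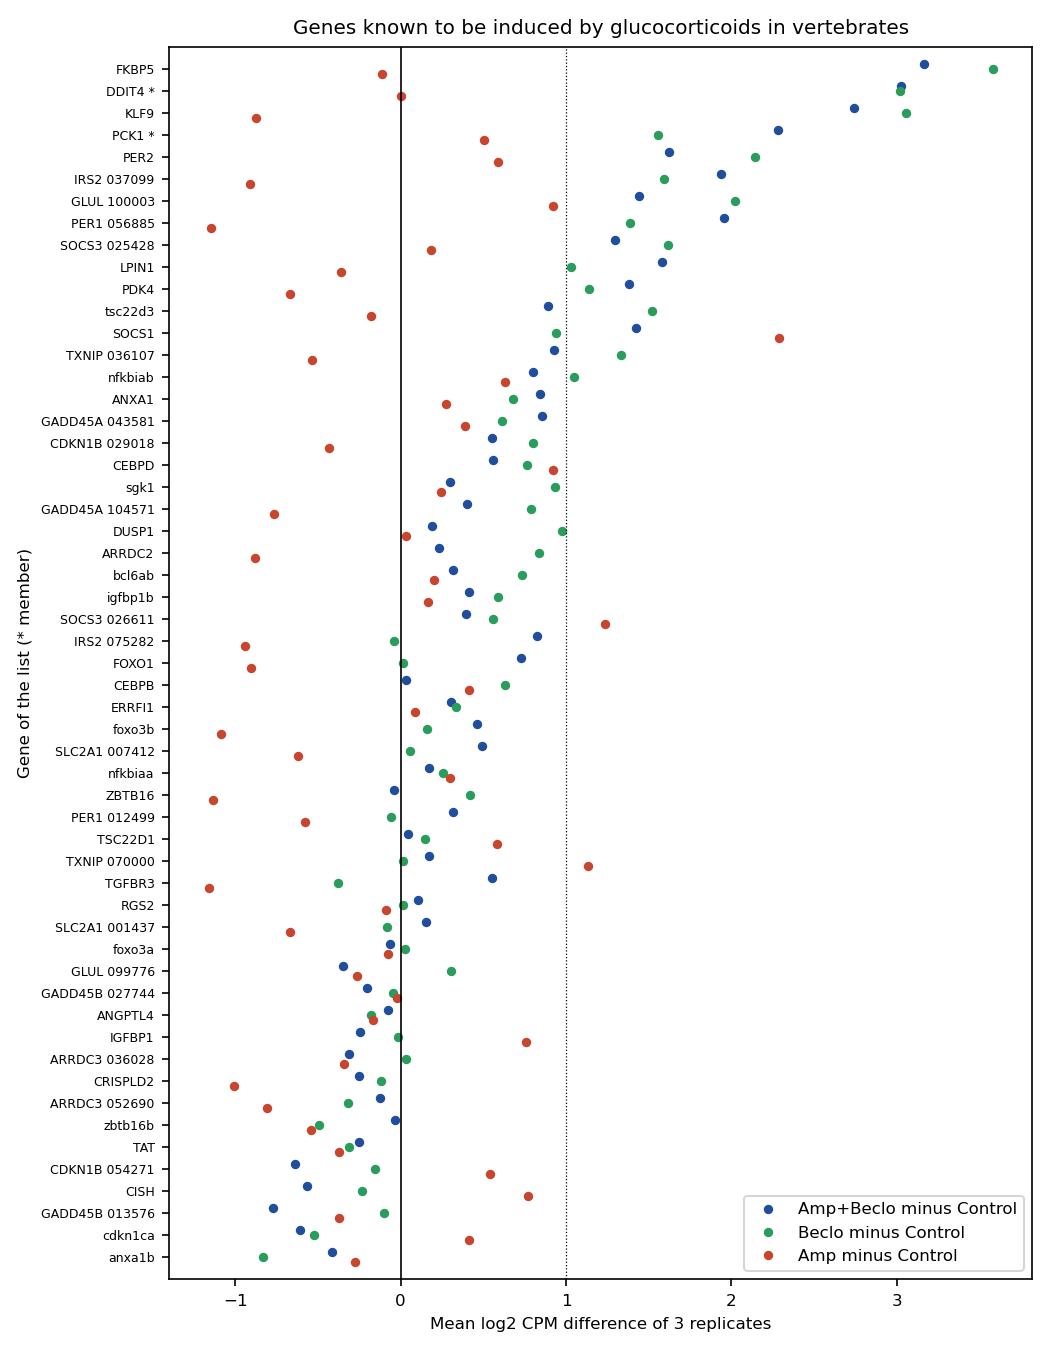
Mean log2 CPM difference of 3 replicates from Control for the 55 known glucocorticoid-induced genes that passed the minimum, with Amp+Beclo in blue, Beclo in green and Amp in red; asterisks mark the members DDIT4 and PCK1, and the dotted line a 2-fold difference. FKBP5, DDIT4 and KLF9 lie farthest to the right in both drug groups, and many of the 55 lie between -1 and 1 in all 3.

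The receptor gene NR3C1 (ENSDARG00000025032) had 70.8, 62.9 and 58.9 CPM in Amp+Beclo and 66.2, 70.1 and 48.6 CPM in Beclo, against 85.7, 41.4 and 32.6 CPM in Amp and 95.4, 94.2 and 73.6 CPM in Control. It was not called in any comparison (log2 fold change ± SE, -0.45 ± 0.29 for Amp+Beclo and -0.51 ± 0.31 for Beclo against Control). Of 15 receptor, chaperone and cofactor genes, the member HSD11B2 was called higher in Beclo against Control and in Amp+Beclo against Amp, and it was the only one called in these 2. Among 23 clock genes nr1d2a was the only member. In Amp+Beclo against Amp 2 of the 23 were called higher, nr1d2a and PER1, and in Beclo against Control 1 was, nr1d2a. In Amp against Control 1 was called lower, dbpb. The clock list's median log2 fold change was 0.50 in Amp+Beclo against Control, 0.42 in Beclo against Control and -0.65 in Amp against Control, beside -0.01, -0.04 and -0.11 over all genes. In Amp+Beclo against Amp, where the lower level in Amp enters too, it was 1.03, beside 0.14. The lists of this paragraph were also written with earlier results of these data known. No gene of a list of alternative macrophage activation was a member. From that list ARG2 and ALOX5AP were called higher in Amp+Beclo against Control, and mrc1b in Amp+Beclo against Amp. In Amp against Control 3 of 18 were called lower, mertka, mrc1b and stab1, and 1 higher, ARG2. Of all genes, 0.374% were called higher in Amp+Beclo against Control, 0.167% in Beclo against Control and 0.258% in Amp+Beclo against Amp. In Amp against Control 2.46% were called, either way, but no gene was called there without the replicate block. ARG2 (ENSDARG00000039269), which breaks arginine down, had 54.3, 105 and 110.3 CPM in Amp+Beclo and 41.4, 58.1 and 57.8 CPM in Beclo, against 34.8, 238 and 62.2 CPM in Amp and 8.48, 33.7 and 17.9 CPM in Control.

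Depth limited the smallest members. Reads in the Control samples ran from 0 to 5500 per member, 9 members had fewer than 30 reads over the 3 Control samples, and 7 had at least 1 vehicle sample with 0 reads. For these the log2 differences depend on the prior count, and their folds are not quoted as ratios. The cDNA was amplified without molecular identifiers, so reads are not independent molecules, and the spread over replicates was used as the error. The CPM are not divided by gene length, and for that reason levels of different genes were not ranked as abundance. Reads were not known to be counted by strand, so a gene and an overlapping antisense gene cannot be told apart.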

How the data were processed

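The authors deposited raw read counts per Ensembl gene for 12 samples, 3 in each of 4 groups. They made SMART-seq V4 libraries, sequenced 50 nt reads on an Illumina HiSeq and mapped them to GRCz10 (annotation 80) with TopHat2 2.1.0. The submitters' processing notes also name DESeq 1.26.0. The counting program and its strand setting are not given in the sources used here. Reads outside genes (4.72% to 12.6%) and ambiguous reads (1.64% to 2.46%) were left out of library sizes and tests.

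From the counts, TMM-normalised CPM and log2 CPM (prior count 2) were obtained in R 4.3.3 (edgeR 4.0.16). Groups were compared in pairs with edgeR's quasi-likelihood test (sum of at least 30 reads, replicate number as block), Benjamini-Hochberg adjustment over all genes tested, and calls at an adjusted p below 0.05 with a fold change above 2. DESeq2 1.42.0 was an alternative. The code was tested on simulated data before use. The study names a paired analysis, which may mean only that groups were compared in pairs. By its account the groups came from replicate experiments, but no source states whether the replicate numbers follow these experiments. The deviations of same-numbered samples from their group means correlated at 0.57 on average for Amp and Control, 0.14 for Amp+Beclo and Beclo, 0.11 for Amp+Beclo and Control, 0.06 for Amp+Beclo and Amp and 0.03 for Beclo and Control, over 20214 genes. Every pair of Amp and Control samples was above 0.1, and in the other comparisons at least 1 pair was not. No 2 libraries of a group agreed within sampling noise.

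The members and lists were chosen with earlier results of these data known. Named by rule were the 25 members with the largest mean of both differences, members on a list, members called in Amp+Beclo against Beclo, those with the highest and lowest Control level, the 3 genes just inside and just outside the threshold, and the 3 genes set aside. Other genes named, and the grouping by function, were chosen after their values were seen. Symbols come from a gene table that matched 63 of 65 members, and 12 share a symbol with another identifier. Lists were matched by symbol without regard to case and then with a final a or b dropped. Marker genes covered erythrocytes, neutrophils, nerve and pigment cells too. Of 7 neutrophil names listed 3 were matched, and mpx was not among them. Neutrophil markers summed to 19.2 to 129 CPM in Amp+Beclo, 50.5 to 104 CPM in Beclo, 37.9 to 121 CPM in Amp and 24.8 to 85.9 CPM in Control, erythrocyte markers to 609 to 1129 CPM in Amp+Beclo, 1010.0 to 1840.4 CPM in Beclo, 1260.3 to 2923 CPM in Amp and 950.3 to 2045 CPM in Control, neural markers to 859 to 1008 CPM in Amp+Beclo, 846 to 927 CPM in Beclo, 1164 to 2059.9 CPM in Amp and 952 to 1339 CPM in Control, and pigment cell markers to 96.1 to 151 CPM in Amp+Beclo, 129 to 263 CPM in Beclo, 166 to 1639 CPM in Amp and 140.2 to 222 CPM in Control. No genome positions are printed, because the gene table is of another assembly than GRCz10, and promoter sequences were not analysed here. The values of 1 member are not reported here.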

Additional observations from a re-analysis of the deposited data

Results flagged for a closer look

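For 2 members the effect of amputation ran in opposite directions with and without the drug in every replicate, a difference that was not tested. For xiap (ENSDARG00000016143), an inhibitor of caspases, Amp+Beclo minus Beclo was -0.11, -0.18 and -1.38 on the log2 CPM scale and Amp minus Control was 0.15, 0.54 and 0.48, a difference between the means of -0.95. For ENSDARG00000098658, which has no symbol in the gene table, the values were -0.59, -0.12 and -0.10 for Amp+Beclo minus Beclo and 0.50, 1.04 and 0.14 for Amp minus Control, a difference of -0.83. This gene had only 5, 3 and 8 reads in Control and 7, 6 and 6 reads in Amp. In replicate 3 its Amp sample had fewer reads than its Control sample, so the sign there rests on the scaling. Opposite directions in every replicate held for 3.08% of the members, beside 12.98% of the 20214 genes.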

How the results depend on the processing

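The set held 63 to 86 genes under the other settings that kept all replicates and the mean of at least 10 reads or no minimum, and 50 with a minimum of 50. With 1 replicate left out the rule found 104 to 138 genes, which kept 59 to 62 of the 65. Of 780 values of single members under the alternatives, 764 moved by less than the replicate SD, 16 moved by more (all with another prior count) and 0 changed sign, the lowest being 1.05. The shares of the 2-replicate choices read in the third stayed within that limit too.

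Counts of calls depended on the settings far more than the values did. Without the replicate block, which pairs samples by number, all genes called were 0 in Amp+Beclo against Beclo (1 with it), 29 in Amp+Beclo against Control (93), 0 in Amp against Control (543) and 2 in Amp+Beclo against Amp (65). Members called without the block were 13 in Amp+Beclo against Control (31) and 2 in Amp+Beclo against Amp (25), and 2 of the 170 genes chosen on unwounded larvae were called higher in Amp+Beclo against Amp (28). DESeq2 with the block called 107 genes in Amp+Beclo against Beclo, 370 in Amp+Beclo against Control (62 members), 241 in Beclo against Control (60 members, 27 by edgeR) and 816 in Amp against Control. RLE normalization gave 0, 141 and 60 genes in Amp+Beclo against Beclo, Amp+Beclo against Control and Beclo against Control. With no filter on low counts these became 18, 261 (59 members) and 138 (49 members).

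Leaving out 1 replicate gave 0 to 38 genes in Amp+Beclo against Beclo, 35 to 664 in Amp+Beclo against Control (16 to 61 members), 3 to 140 in Beclo against Control (2 to 36 members; 38 genes with all replicates), 2 to 1508 in Amp against Control (0 to 1 members) and 1 to 13 in Amp+Beclo against Amp (1 to 9 members). The low ends came without replicate 3 in Amp+Beclo against Control and in Amp against Control, and without replicate 1 in Beclo against Control and in Amp+Beclo against Amp. Of the 170 genes 1 to 10 were then called higher in Amp+Beclo against Amp. Of the genes chosen on the remaining 2 replicates, 21.7% to 52.5% exceeded Amp by more than 1 in both (35.9% in all 3 with all replicates). Read in replicate 1 alone, 75.3% of the 170 exceeded Amp by more than 1. This alternative was chosen after seeing the data because replicates 2 and 3 of Amp stood apart. It asks for a difference in 1 replicate only, so its share is not comparable with the 35.9%. The cause of these shifts was not tested beyond the smaller number of samples. With 3 samples per group, a member called in no comparison is not shown to be unchanged.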
